A study of Mus musculus with 6 samples.

Results

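The MYB family of transcription factors, the MYB-binding protein MYBBP1A and the coactivators CBP and p300 were examined as 6 genes chosen by symbol: Myb, Mybl1, Mybl2, Mybbp1a, Crebbp and Ep300. All 6 were present among the 55471 gene IDs of the table. All 6 were also among the 13348 genes tested, which had at least 1 TPM in at least 3 of the 6 libraries. TPM is a transcript abundance corrected for transcript length and scaled to a fixed total per library, so levels of different genes can be set side by side. The libraries held RNA of mouse bone marrow GMLPs, progenitors sorted as Lin-, Kit+, Sca1+, CD48+ and CD150- cells. There were 3 libraries of genotype MLL-ENL (ME) and 3 of genotype LIN28B*MLL-ENL (L28BME). MLL-ENL, a leukaemia fusion, was thus common to both groups, as was a culture of 3 days with DOX, and the comparison asks what the addition of LIN28B does to cells with the fusion. Strain, age, the promoters that drive the transgenes and any pooling of animals were not given in the sources used here. No source states that replicates were separate animals or cultures. The p-values therefore measure the spread between these 6 libraries only, and that spread may be technical.

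MYB keeps immature blood cells dividing and is switched off as they mature, and leukaemias with MLL fusions are known to depend on it. It activates its targets by holding the KIX domain of CBP (Crebbp) or p300 (Ep300), large acetyltransferases that modify histones at enhancers and promoters. MYBL2, or B-MYB, joins the MuvB complex and FOXM1 on genes of the G2 and M phases in dividing cells. MYBL1, or A-MYB, is best known from male germ cells and germinal centre B cells. MYBBP1A is a nucleolar protein that binds MYB and takes part in ribosomal RNA synthesis. LIN28B blocks the maturation of let-7 microRNAs, which repress transcripts through sites that pair with their seed, bases 2 to 8.

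Between 13215 and 13288 genes reached 1 TPM per library, and Lin28b was listed at 0 TPM in each ME library and reached 11.2 to 11.9 TPM with L28BME. Mitochondrially encoded RNA was 4.12 to 4.35% of the TPM in ME and 4.49 to 4.85% in L28BME, without overlap, and its part in the results below was not tested. Of the genes of the sort, Kit had 94.1 ± 15.7 TPM in ME against 79.2 ± 8.10 TPM in L28BME (here and below, mean ± SD with n = 3 per group) and was not called, Cd48 and Ly6a, the Sca1 gene, were called lower in L28BME, and Slamf1, the CD150 gene, was under 1 TPM in every library. Itgam, whose protein marks mature myeloid cells that a lineage depletion removes, had 41.2 ± 2.77 TPM in ME against 12.9 ± 5.83 TPM in L28BME and was called lower. Several lists of markers moved with the groups. Of all genes tested, 8.28% were called higher and 6.6% lower. The summed TPM of 9 megakaryocyte markers was 119.7 to 125 in ME and 193 to 211 in L28BME (6 called higher), and that of 11 neutrophil markers was 233 to 244 and 552 to 581 (5 of 8 tested called higher, 1 lower). It was 31.7 to 34.0 and 61.3 to 65.5 for 8 B lymphoid markers (2 of 4 tested called higher, with Ms4a1 at 0 in ME). For 10 mast cell and basophil markers it was 576 to 616 and 511 to 529 (2 of 7 tested called lower, with Mcpt4 at 0 throughout), and for 10 erythroid markers it was 12.2 to 20.7 and 21.9 to 35.3 (0 of 5 tested called by limma, 3 at an unadjusted p under 0.05, Hba-a2 at 0). For 8 stromal and endothelial markers it was 185 to 187 and 139 to 142. Nearly all of that sum was Pecam1, called lower, and Pdgfrb, called higher. The other 6 were under 1 TPM in every library, with Cxcl12 and Pdgfra at 0, and each of 7 T lymphoid markers was under 1 TPM. The part of these cell types in the results below was not tested, and in bulk RNA fewer cells of a type and less RNA per cell cannot be told apart.

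The let-7 seed is printed because the microRNAs that LIN28B blocks are known to act on transcripts that match it. RefSeq, with build GRCm38.p6, lists 11 mature microRNAs that hold this seed, among them mmu-miR-1961 beside the let-7 family. The seed is shown in capitals in a pair of let-7 entries.
mmu-let-7a-5p: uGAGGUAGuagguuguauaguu
mmu-let-7g-5p: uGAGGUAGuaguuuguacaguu
The matching letters CTACCTC were found in the longest annotated 3′ UTR of 0 of the 6 genes, while 9.03% of the 3′ UTRs of protein-coding genes held them (1896 of 20993). The 3′ UTRs searched were 1238 bases long for Myb, 2469 for Mybl1, 1394 for Mybl2, 294 for Mybbp1a, 2720 for Crebbp and 1095 for Ep300. The absence of these letters says nothing of other kinds of site or of indirect effects.

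Myb lies on chromosome 10 from 21124935 to 21160984 on the minus strand (GRCm38, GENCODE), Mybl2 on chromosome 2 from 163054687 to 163084688 on the plus strand and Mybl1 on chromosome 1 from 9667415 to 9700209 on the minus strand. Mybbp1a lies on chromosome 11 from 72441355 to 72451768 on the plus strand, Crebbp on chromosome 16 from 4081328 to 4213997 on the minus strand and Ep300 on chromosome 15 from 81585351 to 81652077 on the plus strand. Promoters of 300 bases, 250 before and 50 after the start, were matched in RefSeq (GRCm38.p6) for 5 of the 6 genes, all but Mybl1. The windows of Crebbp (chr16:4213355-4213654) and Ep300 (chr15:81585964-81586263) lie inside the GENCODE genes. The window of Mybl2 (chr2:163054385-163054684) ends before the GENCODE start of that gene, 163054687. None of these windows covers the GENCODE start of its gene, where letters were not searched. Positions from the start are given below from the RefSeq start. The 100 bases before the start are shown for Myb and Mybl2, the 2 genes whose groups did not overlap in level (below), with a run of letters that both hold in capitals.
Myb, chr10:21160985-21161084, minus strand: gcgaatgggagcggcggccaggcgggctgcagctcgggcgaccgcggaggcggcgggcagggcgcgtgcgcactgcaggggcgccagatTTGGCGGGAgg
Mybl2, chr2:163054535-163054634, plus strand: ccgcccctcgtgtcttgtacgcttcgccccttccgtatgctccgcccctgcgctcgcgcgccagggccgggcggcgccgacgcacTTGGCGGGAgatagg
The run TTGGCGGGA began at -11 from the start in Myb and at -15 in Mybl2, and was in neither the Mybbp1a, the Crebbp nor the Ep300 window on either strand. It was noticed after both sequences had been seen. On either strand it was in 0.268% of 32851 promoters of this length, and the E2F-type letters GGCGGGA inside it were in 11.3%. The MYB core letters AACNG, which 80.3% of promoters hold on one strand or the other, occurred at 3 places in the Mybl2 window and at 1 each in those of Myb, Mybbp1a and Crebbp. Such matches describe the letters only, and no binding was measured.

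Of the 6 genes, 1 passed the test: Myb was lower in L28BME cells. Of all genes tested, 14.9% were called, 8.28% higher and 6.6% lower, so that 1 call among 6 genes is near the background. The groups did not overlap for Myb and Mybl2, 2 of 6 genes, against 36.7% of all genes tested. The call is limma's test on log2(TPM + 1) with a Benjamini-Hochberg adjusted p under 0.05, and a fold change on this scale understates the change of genes of low level.

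**Figure D1:**
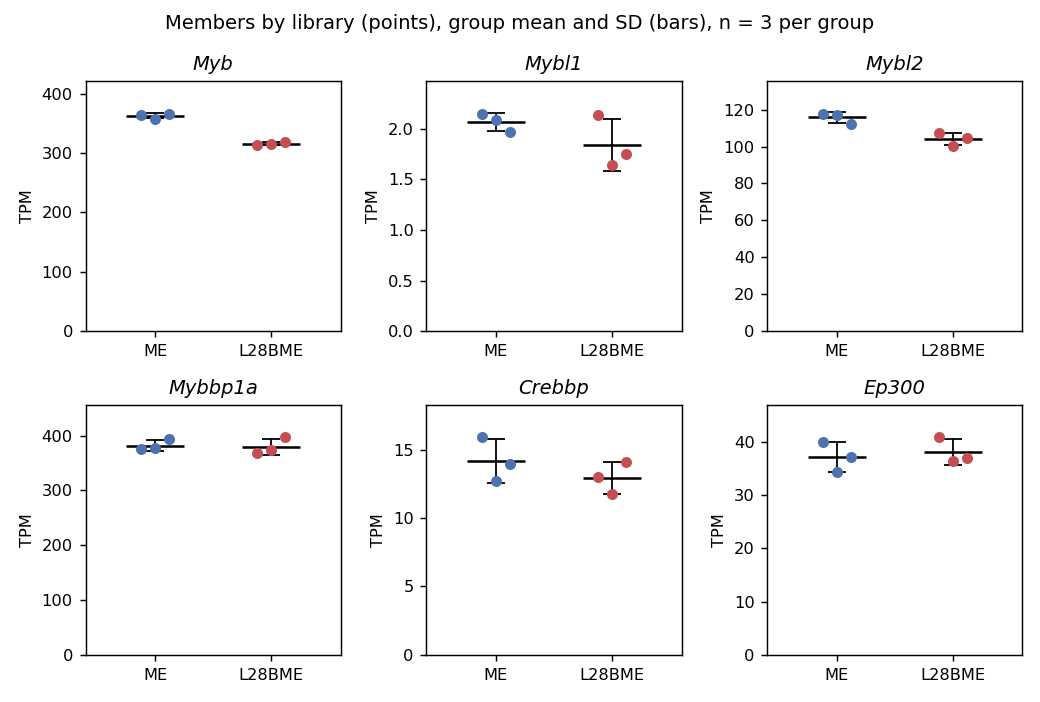
TPM of each gene in each library (points), with the group mean and SD (bars, n = 3 per group) and axes that start at 0. The 3 L28BME libraries lay below the 3 ME libraries for Myb (314 to 319 against 358 to 366 TPM) and for Mybl2 (100.4 to 107 against 112 to 118 TPM), and the groups overlapped for the other genes.

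Myb measured 364, 358 and 366 TPM in ME and 314, 315 and 319 TPM in L28BME. All ME libraries were higher than all L28BME libraries, and the libraries of each group lay close together. The mean fell by 12.9% (log2 fold change -0.20, SE 0.025, 95% interval -0.26 to -0.14, limma adjusted p = 0.00469). The SD was 4.29 TPM in ME and 2.56 TPM in L28BME, so the difference was many times the spread between libraries. It was smaller than that of most called genes: the median absolute log2 fold change was 0.39 among called genes and 0.14 among all genes tested. Myb remained among the most abundant transcripts, at rank 434 of 13348 by mean level. The call held without any 1 library, with log2 fold changes of -0.21 to -0.19 and adjusted p-values of 0.0168 to 0.0250.

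Mybl2 was at 118, 117 and 112 TPM in ME and at 107, 100.4 and 105 TPM in L28BME. The groups did not overlap, but the nearest libraries of the groups were closer than for Myb and the adjusted p missed the threshold (log2 fold change -0.15, SE 0.039, 95% interval -0.25 to -0.06, limma adjusted p = 0.0529). Of 10 other settings, 3 called Mybl2. With only genes of at least 5 TPM the adjusted p was 0.0471, and with median ratio scaling it was 0.0437. The settings that did not call it had adjusted p-values up to 0.112, given by the replicate block. Without any 1 library the adjusted p was 0.0791 to 0.146. Among the family, Mybl2 is the gene tied to cell division through the MuvB complex.

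Mybl1 was the scarcest of the 6 genes, at 2.15, 2.09 and 1.97 TPM in ME and 2.14, 1.64 and 1.75 TPM in L28BME. The groups overlapped, and the log2 fold change of -0.11 (SE 0.11) had a 95% interval of -0.38 to 0.15 (limma adjusted p = 0.542). A decrease as large in log2 terms as that of Myb lies inside this interval, so the data do not separate Mybl1 from Myb in this respect.

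Mybbp1a, at 375, 377 and 393 TPM in ME and 369, 373 and 397 TPM in L28BME, was the most abundant of the 6 genes. The highest and the lowest library were both L28BME libraries. The means were 382 ± 10.1 and 379.7 ± 15.0 TPM, the log2 fold change was -0.01 (SE 0.039) and the 95% interval ran from -0.10 to 0.09 (limma adjusted p = 0.914). That interval does not reach the log2 fold change of Myb, -0.20, and the difference between the genes is tested below as a ratio.

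The coactivators were expressed at lower levels than Myb. Crebbp, which encodes CBP, was at 15.9, 12.7 and 14.0 TPM in ME and at 13.0, 11.7 and 14.1 TPM in L28BME. The groups overlapped, and the log2 fold change was -0.12 (SE 0.11, 95% interval -0.38 to 0.14, limma adjusted p = 0.496). Ep300, which encodes p300, was at 39.9, 34.3 and 37.1 TPM in ME and at 40.8, 36.5 and 37.0 TPM in L28BME. Here too the groups overlapped, with a log2 fold change of 0.04 (SE 0.074, 95% interval -0.14 to 0.22, limma adjusted p = 0.774). The summed TPM of both coactivator genes was 51.3 ± 4.40 in ME and 51.0 ± 2.85 in L28BME. Spread was wider for these genes than for Myb, and the interval of Crebbp includes a decrease of the size seen for Myb.

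**Figure D2:**
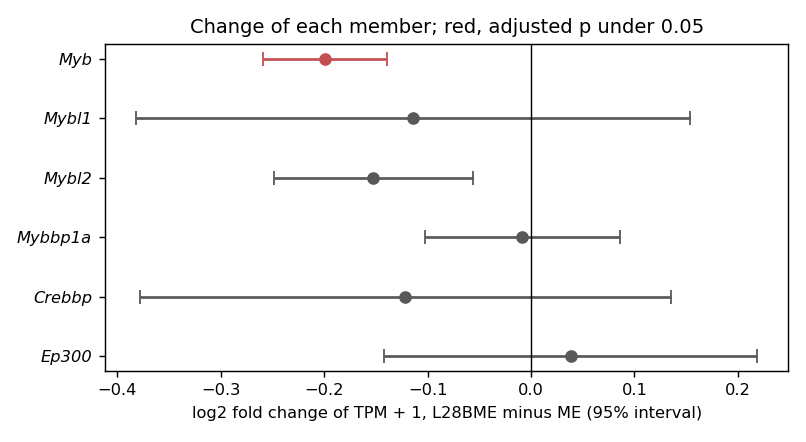
Log2 fold change of TPM + 1 (L28BME minus ME) for each gene with its 95% interval from limma. The interval of Myb lay wholly below 0 with an adjusted p under 0.05, that of Mybl2 lay below 0 with an adjusted p of 0.0529, and those of the other 4 genes included 0.

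The order of levels, Mybbp1a above Myb, then Mybl2, Ep300, Crebbp and Mybl1, was the same in 6 of 6 libraries. Neighbours in that order were well separated except at the top. Mybbp1a was 1.03 to 1.07 times Myb in ME and 1.18 to 1.25 times Myb in L28BME, so the leading pair was nearly level in ME. Myb was 3.05 to 3.26 times Mybl2 in ME and 2.93 to 3.14 times in L28BME, and Mybl2 was 2.95 to 3.42 and 2.62 to 2.83 times Ep300. Ep300 was 2.51 to 2.70 times Crebbp in ME and 2.63 to 3.14 times in L28BME, and Crebbp was 6.08 to 7.39 and 6.10 to 8.05 times Mybl1.

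A ratio within a library does not depend on the scaling of that library, so 4 ratios were compared with two-sided exact permutation tests over the libraries, for which the smallest possible p is 0.1. The ratio of Myb to Mybbp1a was 0.971, 0.950 and 0.932 in ME and 0.850, 0.845 and 0.803 in L28BME. The groups did not overlap, and the log2 difference was -0.19 (exact permutation p = 0.1, adjusted over the 4 ratios 0.4). Myb made up 75.5 ± 0.652% of the summed TPM of Myb, Mybl1 and Mybl2 in ME and 74.9 ± 0.698% in L28BME, a difference of -0.592 percentage points (exact permutation p = 0.4). Thus Myb was the main family transcript in both groups, and its share differed by less than the spread between libraries. Mybl2 stood at 0.319 ± 0.0111 of Myb in ME and 0.330 ± 0.0116 in L28BME (log2 difference 0.05, exact permutation p = 0.4). Crebbp stood at 0.382 ± 0.0149 of Ep300 in ME and 0.340 ± 0.0350 in L28BME (log2 difference -0.17, exact permutation p = 0.3). None of the 4 ratios could pass a threshold of 0.05 in this design.

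**Figure D3:**
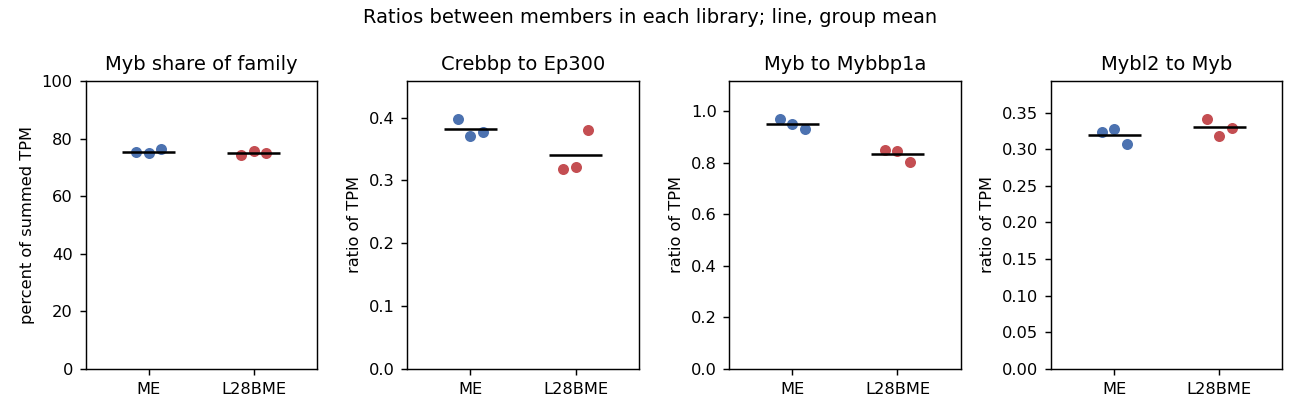
Ratios of TPM between the genes in each library (points) with the group mean (line), and the percent of the summed Myb, Mybl1 and Mybl2 TPM that was Myb, on axes that start at 0. The ratio of Myb to Mybbp1a was 0.932 to 0.971 in ME and 0.803 to 0.850 in L28BME, and the other 3 ratios overlapped between groups.

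Among all genes tested, the percentile of mean level was 97.3 for Mybbp1a, 96.8 for Myb, 86.4 for Mybl2, 62.5 for Ep300, 37.4 for Crebbp and 9.33 for Mybl1. The absolute log2 fold change of Myb was at percentile 64.1 of the same genes. Myb thus passed the test with a change of ordinary size and a small error.

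**Figure D4:**
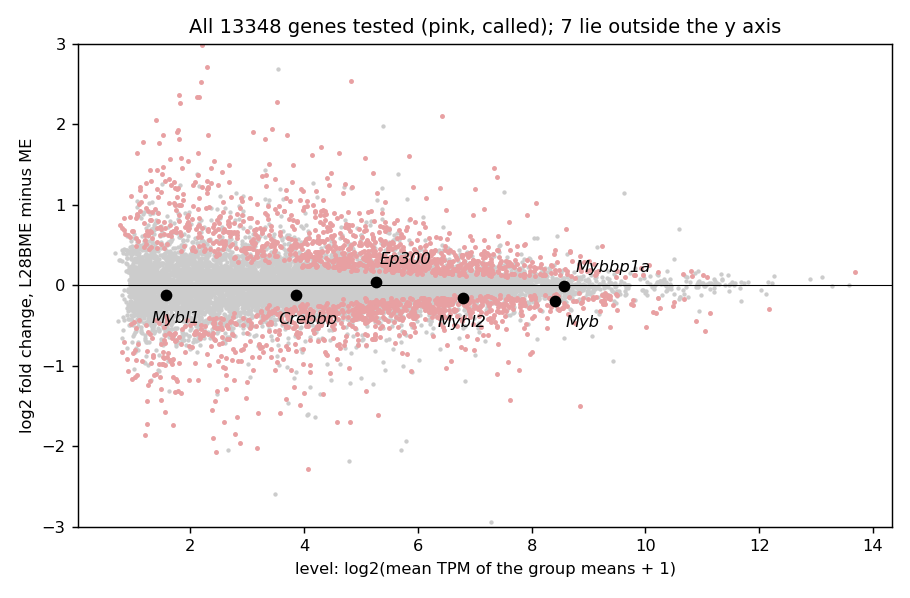
Mean level (log2 of TPM + 1) on the x axis and log2 fold change (L28BME minus ME) on the y axis for the 13348 genes tested, with called genes in pink, others in grey and the 6 genes in black. The 6 genes lay near 0 on the y axis, between -0.20 and 0.04, and 7 genes lay outside its range.

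The genes whose log2(TPM + 1) followed that of Myb most closely over the 6 libraries, among 10261 genes that averaged 5 TPM or more in each group, were Atp10a (Pearson r 0.999), Ica1 (0.998), Pon2 (0.998), Abcc4 (0.997) and Lamtor4 (0.997). These 5 genes encode, in that order, a phospholipid flippase, an islet autoantigen, a paraoxonase, an exporter of nucleotides and drugs and a subunit of the lysosomal Ragulator complex. The libraries fall into 2 groups, so r mostly reflects the group difference, and 804 genes had an r over 0.9. Ica1 was at 48.2, 47.0 and 48.9 TPM in ME and at 29.9, 30.6 and 31.0 TPM in L28BME (log2 fold change -0.64, limma adjusted p = 6.06e-04). Atp10a was at 35.1 ± 0.938 and 26.3 ± 0.212 TPM (log2 fold change -0.40, limma adjusted p = 0.00315). All 5 were called lower, but they were chosen by r with Myb, so a lower level in L28BME was largely set by that choice. Pon2 alone lost its call without any 1 library (adjusted p 0.0535 to 0.0679). Mybl2 had an r of 0.88 with Myb, Mybl1 0.54, Crebbp 0.53, Mybbp1a 0.19 and Ep300 -0.21.

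Of 15 MYB target genes of progenitors, 3 rose and 5 fell (20% and 33.3%, beside 8.28% and 6.6% of all genes tested). Their median log2 fold change was -0.20, beside 0.0033 for all genes tested. The list moved in both directions, with 7 positive and 8 negative values. The median is the value of Cd34, the negative value nearest 0, and the next value above it was 0.06, that of Bcl2. Elane, the neutrophil elastase gene, was at 1217, 1192 and 1246 TPM in ME and at 832, 829 and 892 TPM in L28BME (log2 fold change -0.52, limma adjusted p = 8.90e-04). Gfi1, a repressor needed for neutrophil development, fell from 63.7 ± 0.760 to 42.4 ± 0.242 TPM (log2 fold change -0.57, limma adjusted p = 5.42e-04). Cd34, a surface protein of progenitors, fell from 505.9 ± 3.71 to 440.2 ± 3.76 TPM, with a log2 fold change of -0.20 as for Myb itself. Cdk6, a G1 kinase, fell from 129 ± 3.47 to 106 ± 1.75 TPM, and Mpo, myeloperoxidase, from 5074 ± 19.3 to 4140 ± 368 TPM. Flt3, a receptor tyrosine kinase of early progenitors, went the other way: it was at 92.6, 96.7 and 100.5 TPM in ME and at 189, 186.6 and 185 TPM in L28BME (log2 fold change 0.95, limma adjusted p = 1.60e-04). Adora2b, an adenosine receptor, rose from 4.63 ± 0.507 to 7.46 ± 0.282 TPM and Cebpb, a myeloid transcription factor, from 10.3 ± 0.490 to 14.5 ± 1.58 TPM. The other 7, Kit, Bcl2, Myc, Prtn3, Sox4, Ccnb1 and Lmo2, were not called. Myc was at 289 ± 17.0 and 323 ± 34.0 TPM, and Bcl2 at 48.1 ± 0.617 and 50.1 ± 0.727 TPM. The call of Mpo was lost without any 1 library but L28BME 3 (adjusted p 0.0649 to 0.0887), and that of Cebpb without any 1 but L28BME 2 (adjusted p 0.0681 to 0.0867). The neutrophil marker sums given above were higher in L28BME, mostly through S100a8 and S100a9, with 5 of 8 tested markers called higher and 1 lower. Elane, Gfi1 and Mpo fell.

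Of 22 regulators and partners of the MYB protein, 21 were tested and 2 rose (9.52%, beside 8.28% of all genes tested). Nlk, a kinase that phosphorylates MYB and marks it for degradation, was at 13.5, 13.6 and 14.9 TPM in ME and at 21.4, 25.1 and 19.6 TPM in L28BME. The groups did not overlap (log2 fold change 0.61, SE 0.10, limma adjusted p = 0.0128), although without ME 2 the adjusted p was 0.0502. Cebpb, which cooperates with MYB on myeloid promoters, was the other. By limma 0 fell (2 had an unadjusted p under 0.05 and a lower level, and 6.6% of all genes tested fell). The median log2 fold change was 0.04. Pim1, a kinase that acts with MYB, was at 435, 459 and 509 TPM in ME and at 833, 569 and 584 TPM in L28BME, with an adjusted p of 0.0954. Ets1, an ETS factor that binds beside MYB, was at 4.78 ± 0.621 and 3.58 ± 0.146 TPM (limma adjusted p = 0.0930). Kmt2a, the gene of normal MLL, was at 14.7 ± 0.522 and 13.8 ± 1.14 TPM, and Taf12, a TFIID subunit that stabilises MYB, at 21.8 ± 1.69 and 20.4 ± 0.745 TPM; neither was called. Men1, the gene of menin, was listed at 0 in all libraries, and whether it is silent in these cells was not tested.

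MYBL2 joins the MuvB complex. Of 13 genes of the MuvB core and the related DREAM complex, 1 rose (7.69%, beside 8.28% of all genes tested) and 0 fell by limma (2 had an unadjusted p under 0.05 and a lower level, and 6.6% of all genes tested fell), and the median log2 fold change was -0.03. The one that rose, E2f5, encodes an E2F that represses with p130 and p107. It was at 8.17, 7.01 and 8.31 TPM in ME and at 17.2, 17.5 and 17.0 TPM in L28BME (log2 fold change 1.05, SE 0.079, limma adjusted p = 9.86e-04). Tfdp1, the dimer partner of E2F factors, was at 510 ± 18.4 and 463 ± 10.7 TPM (limma adjusted p = 0.0534). It was called in 2 of 10 other settings, among them only genes of at least 5 TPM (0.0489). Over those 10 settings the limma adjusted p was 0.0407 to 0.138. Rbl1, which encodes p107, was at 62.7 ± 2.13 and 55.7 ± 3.13 TPM (limma adjusted p = 0.0958). Foxm1, which follows MYBL2 onto G2 and M genes, was at 63.7 ± 10.3 and 64.0 ± 18.2 TPM, and the MuvB genes Lin9, Lin37, Lin52, Lin54 and Rbbp4 were not called.

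Among 22 target genes of MYBL2, MuvB and FOXM1 in the G2 and M phases, 4 rose and 1 fell (18.2% and 4.55%). Of all genes tested, 8.28% rose and 6.6% fell. The median log2 fold change of the list was 0.07, with 19 positive and 3 negative values, beside 6755 and 6593 over all genes tested. Top2a, topoisomerase II alpha, was at 537, 545 and 522 TPM in ME and at 612, 609.6 and 599 TPM in L28BME (log2 fold change 0.18, SE 0.027, limma adjusted p = 0.00876). Bub1b, a spindle checkpoint kinase, rose from 143 ± 2.16 to 163 ± 2.81 TPM, Aurka, the Aurora A kinase, from 113 ± 2.46 to 129 ± 3.73 TPM, and Nusap1, a spindle protein, from 92.4 ± 1.71 to 106 ± 3.54 TPM. Cdc20, the activator of the anaphase-promoting complex, fell from 198 ± 3.32 to 175 ± 1.01 TPM (limma adjusted p = 0.0122). Mybl2 itself, at 116 ± 3.00 and 104 ± 3.42 TPM, had a negative log2 fold change where most of these genes had a positive one. Fewer were called without 1 library, 2 or 3 higher in each case. Cdc20 lost its call without ME 2 (adjusted p = 0.0504), Aurka without any 1 but L28BME 2 (0.0504 to 0.0723), as well as with limma without a trend (0.0508), and Nusap1 without any 1 but L28BME 3 (0.0517 to 0.0743).

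Of 19 partners of MYBBP1A, 18 were tested, 0 rose by limma (2 had an unadjusted p under 0.05 and a higher level) and 1 fell (5.56%). The shares of all genes tested were 8.28% higher and 6.6% lower. The median log2 fold change of the partners was -0.02. The one that fell, Trp53, encodes p53, whose acetylation by p300 MYBBP1A is known to aid. It was at 239, 227.5 and 226 TPM in ME and at 200.4, 205 and 206 TPM in L28BME (log2 fold change -0.18, limma adjusted p = 0.0200), and the call held only without ME 3 among the 6 that left out a library (adjusted p 0.0505 to 0.0692 in the others). Without L28BME 2, Ercc6, a chromatin remodeller of transcription-coupled repair, was called higher (adjusted p = 0.0295; 18.3 ± 1.37 and 24.3 ± 3.31 TPM over all libraries, adjusted p = 0.0763). The remodeller subunits Smarca5 (151 ± 4.26 and 149 ± 6.88 TPM) and Baz1b (165 ± 4.55 and 163 ± 4.09 TPM) and the nucleolar helicase Ddx21 (309 ± 4.67 and 305 ± 2.10 TPM) were not called. Npm1, nucleophosmin, an abundant nucleolar chaperone, was at 2891 ± 49.5 and 2762 ± 56.2 TPM (limma adjusted p = 0.158).

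RNA polymerase I, which transcribes the ribosomal RNA genes, and its initiation factors gave 0 calls among 15 genes by limma (1 higher and 1 lower at an unadjusted p under 0.05). The share called among all genes tested was 14.9%. The median log2 fold change of the 15 genes was -0.03. Rrn3, the factor that recruits the polymerase, was at 68.8, 68.5 and 71.5 TPM in ME and at 63.8, 64.4 and 61.9 TPM in L28BME. The groups did not overlap, and the adjusted p was 0.0665 (log2 fold change -0.13). Taf1b, a subunit of the promoter selectivity factor, was at 35.4 ± 1.44 and 39.1 ± 1.62 TPM (limma adjusted p = 0.138), and Polr1e, a polymerase subunit, at 54.4 ± 2.75 and 48.2 ± 3.92 TPM (limma adjusted p = 0.173).

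Of 14 other histone acetyltransferases, 1 rose and 1 fell (7.14% each, beside 8.28% and 6.6% of all genes tested). The median log2 fold change was -0.04. Ncoa3, a steroid receptor coactivator that itself binds CBP and p300, was at 24.5, 28.7 and 27.0 TPM in ME and at 42.3, 41.6 and 35.4 TPM in L28BME (log2 fold change 0.56, limma adjusted p = 0.0132). Clock, the circadian factor, fell from 4.68 ± 0.550 to 2.78 ± 0.264 TPM (limma adjusted p = 0.0203), a call lost without ME 1, ME 2, L28BME 2 or L28BME 3 (adjusted p 0.0538 to 0.0649). Hat1, at 190.5 ± 3.39 and 203 ± 5.02 TPM, and Kat2b, at 19.8 ± 1.11 and 17.9 ± 0.404 TPM, were not called.

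Of 24 factors that bind CBP and p300, 23 were tested, 3 rose and 3 fell (13% each, beside 8.28% and 6.6% of all genes tested). The median log2 fold change was 0.02. The largest changes among the called genes were decreases, while Crebbp and Ep300 themselves were not called. Creb1, the factor for which CBP is named, was at 35.4, 37.9 and 35.3 TPM in ME and at 16.4, 20.4 and 15.2 TPM in L28BME (log2 fold change -1.03, SE 0.11, limma adjusted p = 0.00304). Every L28BME library was thus below every ME library by a wide margin. Cited4, which binds the CH1 domain of CBP and p300, was at 9.55, 10.02 and 9.71 TPM in ME and at 1.77, 2.11 and 2.10 TPM in L28BME (log2 fold change -1.85, limma adjusted p = 2.65e-04). Trp53 was the other that fell. Besides Ncoa3, Nfatc2, a calcium-responsive factor, rose from 3.63 ± 0.205 to 5.67 ± 0.541 TPM and Smad3, a mediator of TGF-beta signals, from 23.4 ± 0.543 to 27.8 ± 1.04 TPM. Both lost the call when some libraries were left out: Nfatc2 without ME 2, ME 3, L28BME 1 or L28BME 3 (adjusted p 0.0637 to 0.0668) and Smad3 without any 1 but L28BME 1 (adjusted p 0.0611 to 0.0904). Atf4, the stress-response factor, was at 621, 636 and 641 TPM in ME and at 319, 692 and 308 TPM in L28BME, where L28BME 2 stood apart from the other libraries of its group (limma adjusted p = 0.236).

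**Figure D5:**
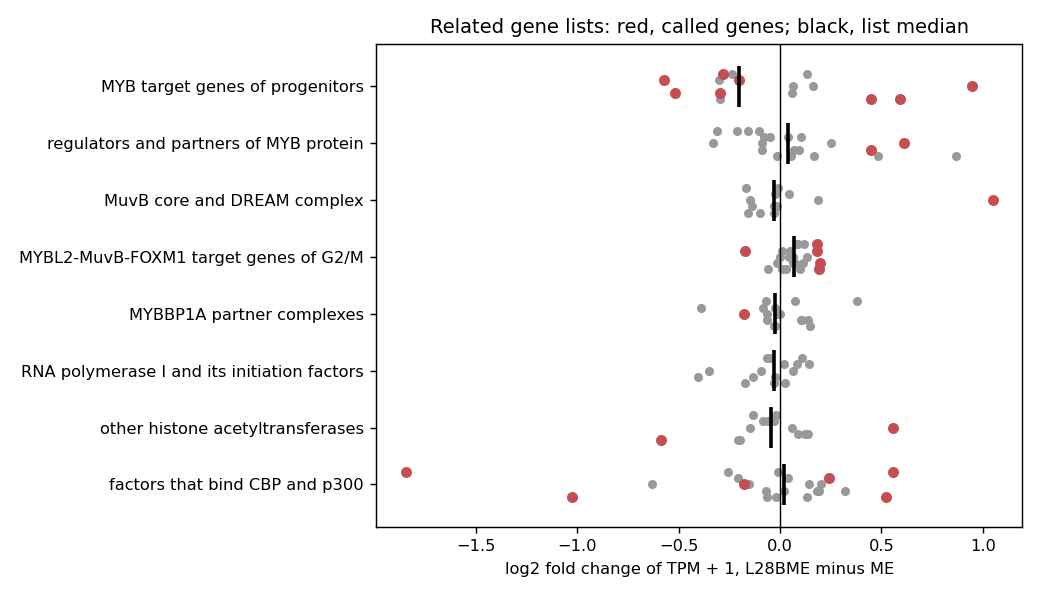
Log2 fold change of TPM + 1 (L28BME minus ME) of each tested gene of the 8 related lists, with called genes in red, others in grey and the list median as a black bar. The median was -0.20 for MYB target genes and lay between -0.04 and 0.07 for the other lists. For MYB target genes it is the value of Cd34, in a list with 7 positive and 8 negative values.

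Neighbouring genes can share reads with the genes reported, and whether strand was used in the quantification was not given in the sources used here. Myb shares 559 exonic bases, 6.26% of its exons, with the antisense gene Gm26577, which was at or below 0.285 TPM in every library. Mybbp1a shares 131 exonic bases (2.26%) with Spns2 on the opposite strand, at 63.7 to 86.1 TPM, and Ep300 shares 54 (0.378%) with Gm23880. Of the 22 called genes of the related lists, 7 share exonic bases with a gene on the opposite strand that reached 1 TPM in at least 1 library: Cdc20, Cebpb, E2f5, Gfi1, Mpo, Ncoa3 and Nusap1. E2f5, at 7.01 to 17.5 TPM, shares 26 bases, or 1.46% of its exons, with 1810022K09Rik, at 134 to 199.6 TPM, and Cebpb shares 312, or 20.7% of its exons, with Tmem189, at 50.9 to 65.1 TPM. Reads of such a pair cannot be told apart if strand was not used, and their values are uncertain to that extent.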

How the data were processed

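Per the labels' protocols, RNA came from a Norgen kit for single cell RNA and libraries from the TruSeq Stranded mRNA kit. The submitters' processing notes name bcl2fastq, HISAT2, StringTie, DESeq2 and GRCm38, with versions not given in the sources used here. Per gene and library, the authors deposited TPM; the percent GC of each gene, per the file headers, served 1 alternative. TPM carry no counts, so depth is unknown and count models were not used here.

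Genes with at least 1 TPM in at least 3 of 6 libraries were tested on log2(TPM + 1) with limma 3.58.1 (R 4.3.3, data.table version 1.17.8), with an intensity trend, two-sided, and Benjamini-Hochberg adjustment over all genes tested. Sequences and figures used Python 3.11.15, pandas 2.3.3, numpy 2.4.6 and matplotlib 3.10.9. The procedure was tested on simulated data. The 6 genes, 8 related lists and 9 marker lists were chosen with earlier results of these data known. Named genes were the 6 genes, up to 4 genes of each related list with the smallest p, the 5 genes most like Myb and the sort markers. Other list genes that the text names, such as Mpo, Cdk6, Adora2b, Nusap1, Smad3, Foxm1 and Atf4, and the shared promoter run, were chosen after their values or letters were seen. Alternatives were pseudocounts of 0.1 and 5, other filters on low values, other scalings, other limma options, a replicate block, each library left out in turn and a fit without the GC trend, which was chosen after seeing the data. The value of 1 marker gene is not reported here.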

Additional observations from a re-analysis of the deposited data

How the results depend on the processing

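The call of Myb held in 10 of 10 other settings (adjusted p 0.00386 to 0.0356) and without any 1 library. Over all genes, leaving out 1 library gave 617 to 693 genes higher and 461 to 582 lower, against 1105 and 881 with all 6. A replicate block gave 548 higher and 400 lower. No pairing by replicate number was seen in the correlations: same-numbered libraries deviated with correlations of -0.03, -0.07 and -0.05, and no library correlated best with its own number. The block lowered the SE of Mybbp1a, Ep300 and Crebbp and raised that of Myb, Mybl1 and Mybl2. Whether same-numbered libraries shared a step of preparation was not tested. With the block, Myb had an adjusted p of 0.0356, while Nlk (0.0591), Cebpb (0.0927), Bub1b (0.0635), Aurka (0.0517), Nusap1 (0.0773), Cdc20 (0.0602), Trp53 (0.0798), Ncoa3 (0.0517), Clock (0.0804), Nfatc2 (0.0558), Smad3 (0.0994), Mpo (0.0587) and Pon2 (0.0763) were not called. The regulators of MYB then had 0 genes higher, and the G2 and M targets 1 higher and 0 lower. Limma without a trend did not call Aurka (0.0508), Trp53 (0.0584) and Mpo (0.0531). With no filter on low values, limma did not call Cebpb (adjusted p = 0.0535), Clock (0.0564), Nfatc2 (0.0555) and Mpo (0.0737). Mybl2 passed with only genes of at least 5 TPM (log2 fold change -0.15), with median ratio scaling (-0.16) and with the GC trend removed, chosen after seeing the data (-0.17, adjusted p = 0.0334). It did not pass in the other settings, among them limma without a trend (adjusted p = 0.102) and the replicate block (0.112). The cause was not tested. Without 1 library, Mybbp1a ranged from -0.040 to 0.013 and Ep300 from -0.015 to 0.091 in log2 fold change, so neither has a settled sign. No setting moved the median of all genes by over 0.1. Precision is limited by 3 libraries a group and by unknown depth.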
